A study of Mus musculus with 4 samples.

Results

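The 10 genes described here are those used to read the activation state of macrophages in a tissue, taken by symbol from the 19030 genes of the expression table. They are *Retnla*, *Chil3*, *Arg1*, *Mrc1*, *Cd163*, *Clec10a* and *Il4ra* for alternative activation, *Trem2* and *Gpnmb* for lipid-associated macrophages, and *Nos2* for inflammatory activation. All 10 are in the table. They were selected on the FPKM of *Arg1* and *Retnla* in these same libraries, the former being higher and the latter lower in the mutant tissue, so the differences of the members between genotypes are given as a description and were not tested. The samples were ingWAT, the inguinal depot of subcutaneous white fat, from 3-month-old C57BL/6 mice housed at 4°C, with 2 libraries of each genotype and no group kept warm. Ctrl mice carried *Oct3* flanked by loxP sites, and cKO mice carried the same floxed *Oct3* with an Adiponectin-Cre transgene that deletes part of the gene in adipocytes. Oct3, encoded by *Slc22a3*, is a transporter that takes up norepinephrine and other monoamines. The methods of the study describe cold challenges of male mice in steps, a week at a milder temperature and then several weeks at 4°C. Its results and figure legends, including those of the RNA sequencing of ingWAT, give a month at 4°C and no steps. The labels give only 4°C and no duration, so whether these mice had the milder week is not settled. The number of mice behind a library is not given in the sources used here. The p-values therefore measure only the spread between these libraries, which may be technical. The Cre is driven in adipocytes and not in macrophages, and the tissue was sequenced whole, so each value is the RNA of all cells together. For the same reason, fewer cells of a type and less RNA per cell cannot be told apart.

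Macrophages take on different gene programmes according to the signals they meet. The cytokines IL-4 and IL-13 act through a receptor that holds the *Il4ra* chain and through the transcription factor STAT6, and in mouse macrophages they induce *Arg1*, *Retnla* and *Chil3* together with lectin receptors such as *Mrc1* and *Clec10a*. Bacterial products and interferon gamma induce *Nos2*, whose product uses the same substrate, arginine, as arginase 1. In adipose tissue, macrophages that take up lipid express the receptor *Trem2* and lysosomal genes, whereas the resident macrophages of healthy fat carry scavenger receptors such as *Mrc1* and *Cd163*.

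The promoters of *Retnla* and *Chil3* are shown because these genes, both classical targets of IL-4, differed in opposite directions here. *Retnla* lies at chr16:48842609-48844461, *Chil3* at chr3:106147554-106167564 and *Arg1* at chr10:24915207-24927470. The windows are RefSeq sequence of GRCm38.p6, from 250 bases before to 50 bases after the annotated start, at chr16:48842359-48842658 on the plus strand for *Retnla* and at chr3:106167515-106167814 on the minus strand for *Chil3*. Capitals mark matches to TTCNNNNGAA (STAT6), TTGCNNAA (C/EBP) and GGGANNNNCC (NF-kB), searched on both strands.
Retnla: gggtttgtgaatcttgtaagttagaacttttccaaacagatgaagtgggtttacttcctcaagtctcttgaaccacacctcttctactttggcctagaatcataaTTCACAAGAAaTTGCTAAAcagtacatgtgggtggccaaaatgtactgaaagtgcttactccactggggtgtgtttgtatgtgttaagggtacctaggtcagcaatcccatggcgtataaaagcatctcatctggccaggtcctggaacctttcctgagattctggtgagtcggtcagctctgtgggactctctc
Chil3: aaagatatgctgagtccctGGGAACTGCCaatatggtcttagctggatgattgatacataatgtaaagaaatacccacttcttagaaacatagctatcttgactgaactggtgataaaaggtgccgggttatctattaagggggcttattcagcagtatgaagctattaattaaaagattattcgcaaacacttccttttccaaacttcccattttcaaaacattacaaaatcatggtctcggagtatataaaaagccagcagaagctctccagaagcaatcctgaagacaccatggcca
The *Retnla* window held TTCACAAGAA from base -145 to -136 and TTGCTAAA from -134 to -127, counted from the start of the gene, and the match to each motif does not overlap the other. The *Chil3* window held GGGAACTGCC from -231 to -222 and none of the STAT6 or C/EBP letters as written above. Other spacings of TTC and GAA are not covered by those STAT6 letters. Of 32851 mouse promoter windows of the same length, 6.95% held the STAT6 letters, 10.8% the C/EBP letters and 20.73% the NF-kB letters. A window was found for 7 of the 10 members, and the STAT6 letters were in 1 of the 7 and the C/EBP letters in 2, those of *Retnla* and *Trem2*. NF-kB letters were in 3 of the 7, those of *Cd163*, *Chil3* and *Mrc1*. AP-1 letters (TGANTCA, 7.81% of all windows) were in those of *Gpnmb* and *Trem2*, and the E-box CACGTG (7.15% of all windows) was in none of the 7. A match is only a description of these letters, and binding was not measured.

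The table gives FPKM, which corrects for transcript length and for the number of mapped reads, so levels can be compared between genes as well as between libraries. The sum of FPKM per library lay between 484152 and 497839, and the estimated depth between 17300000 and 18300000 reads. *Slc22a3*, the deleted gene, was at 17.0 and 17.7 FPKM in Ctrl and at 9.07 and 9.5 in cKO (limma with Benjamini-Hochberg adjustment, log2 fold change -0.83, adjusted p = 0.000439), and transcripts of it thus remained in cKO tissue. Of 12658 genes that averaged 1 FPKM or more, 3269 (25.8%) were called different at an adjusted p under 0.05, with 1519 (12.0%) higher and 1750 (13.8%) lower in cKO. These totals were larger than those of any fit without a library, of which the fit without Ctrl replicate 1 gave the fewest, 303 higher and 484 lower. The fits without Ctrl replicate 2, cKO replicate 1 and cKO replicate 2 gave 598, 1072 and 961 higher and 880, 1080 and 1379 lower. A fit without a library leaves a group of 1, so a call can be lost there with no change in the size of the difference. Over the genes tested the median log2 fold change was -0.006. Log2 fold changes compare cKO with Ctrl after adding 1 to each FPKM, so that those of low genes come out too small.

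In cKO ingWAT, *Retnla* and *Chil3*, genes of secreted proteins used as markers of alternative activation, differed in opposite directions. Which cells of the tissue their RNA came from was not tested. *Retnla*, which encodes the secreted protein RELM alpha, was the highest of the 10 members in both genotypes, with an FPKM of 557.44 and 472.67 in Ctrl and of 186.94 and 176.6 in cKO. Both cKO libraries lay far below both Ctrl libraries, with a mean of 182 ± 7.31 (SD, n = 2) against 515 ± 59.9 (SD, n = 2), which is 0.353 times the Ctrl level. *Chil3*, which encodes the chitinase-like lectin Ym1, was at 1.32 and 1.09 FPKM in Ctrl and at 4.76 and 3.84 in cKO. The groups did not overlap in the other direction, and the cKO mean was 3.57 times the Ctrl mean on the FPKM scale, or a log2 fold change of 1.26 with the pseudocount of 1. In GENCODE transcripts, 28.52% of the 1536 50-base words of *Chil3* are shared with other genes, 275 of the 438 shared words with *Chil4*, so the split of reads between them is uncertain. *Chil4* itself was listed at 0.04 to 0.1 FPKM.

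*Arg1*, which encodes the arginase that turns arginine into ornithine and urea, was at 0.04 FPKM in each Ctrl library and at 5.33 and 3.87 FPKM in the cKO libraries. At the estimated depths, that is about 1 read in each Ctrl library and 132.9 and 97.6 reads in the cKO libraries. The ratio of the summed reads per depth was 121, but it rests on about 1 read in each Ctrl library, so the size of the fold is known only loosely. On the log2(FPKM + 1) scale the difference was 2.42, and 5.05 with a pseudocount of 0.1. All 10 members passed the filter on low values, *Arg1* only through the cKO libraries. *Nos2*, the inducible nitric oxide synthase, was at 4.19 and 3.53 FPKM in Ctrl and at 2.23 and 2.67 in cKO, where both libraries lay below both Ctrl libraries. The FPKM of *Arg1* divided by that of *Nos2* was 0.00955 and 0.0113 in Ctrl and 2.39 and 1.45 in cKO. *Nos2* thus exceeded *Arg1* in both Ctrl libraries, and *Arg1* exceeded *Nos2* in both cKO libraries.

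The scavenger and lectin receptors of resident macrophages among the members were all lower in cKO. *Cd163*, the receptor for haemoglobin bound to haptoglobin, was at 18.95 and 17.18 FPKM in Ctrl and at 8.39 and 7.35 in cKO. *Mrc1*, the mannose receptor CD206, was at 33.35 and 29.22 FPKM in Ctrl and at 19.25 and 17.84 in cKO. *Clec10a*, a lectin for galactose-type sugars, was at 72.55 and 65.25 FPKM in Ctrl and at 49.96 and 45.82 in cKO. In each of these genes both cKO libraries were below both Ctrl libraries, and the cKO means were 0.436, 0.593 and 0.695 times the Ctrl means for *Cd163*, *Mrc1* and *Clec10a*. The size of the difference thus fell in the order *Retnla*, *Cd163*, *Mrc1*, *Nos2* and *Clec10a* among the 5 lower members. *Clec10a* shares 9.24% of its 50-base words with other genes, 242 of 259 with the neighbouring lectin gene *Mgl2*, so part of its value could belong to that gene.

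*Il4ra*, the receptor chain shared by IL-4 and IL-13, was at 14.82 and 14.89 FPKM in Ctrl and at 17.57 and 20.45 in cKO. *Trem2*, a lipid-sensing receptor that signals through the adaptor encoded by *Tyrobp*, was at 3.79 and 3.68 FPKM in Ctrl and at 7.53 and 5.69 in cKO. *Gpnmb*, a membrane glycoprotein of lipid-laden and lysosome-rich macrophages, was at 10.7 and 9.09 FPKM in Ctrl and at 13.56 and 11.59 in cKO. In all 3 the cKO libraries were above the Ctrl libraries, with means 1.28, 1.77 and 1.27 times those of Ctrl. The gap between the groups was narrow for *Gpnmb*, where the lower cKO library exceeded the higher Ctrl library by less than the libraries of either genotype differed from each other. In all, the libraries of the genotypes did not overlap for any of the 10 members, with 5 higher and 5 lower in cKO. The same held for 66.5% of all genes tested, 31.9% higher and 34.6% lower.

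**Figure D1:**
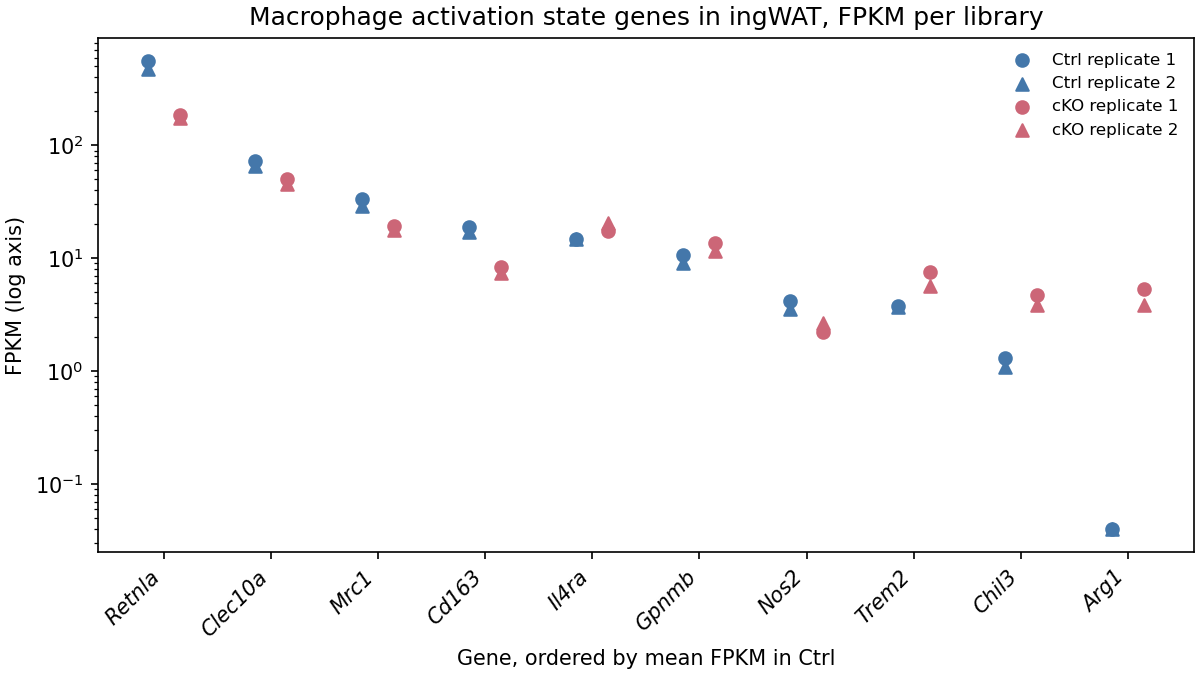
FPKM of the 10 genes (log axis) in each of the 4 libraries, with genes ordered by their mean in Ctrl, Ctrl in blue and cKO in red, and a circle for replicate 1 and a triangle for replicate 2. The marks of *Arg1* stand at 0.04 FPKM for Ctrl and at 5.33 and 3.87 for cKO, while *Retnla* is the highest gene in every library at 176.6 to 557.44 FPKM.

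*Retnla* and *Clec10a* were the highest members in both genotypes, and most of the others changed places. In Ctrl the order from the highest was *Retnla*, *Clec10a*, *Mrc1*, *Cd163*, *Il4ra*, *Gpnmb*, *Nos2*, *Trem2*, *Chil3* and *Arg1*, and of the neighbours in that order only *Nos2* and *Trem2* overlapped between libraries. In cKO the order was *Retnla*, *Clec10a*, *Il4ra*, *Mrc1*, *Gpnmb*, *Cd163*, *Trem2*, *Arg1*, *Chil3* and *Nos2*. There, *Il4ra* and *Mrc1*, *Cd163* and *Trem2*, and *Arg1* and *Chil3* did not differ beyond their spread. *Nos2* was the lowest member in both cKO libraries.

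The summed FPKM of 16 general macrophage markers was 1575 and 1364 in Ctrl and 1509 and 1527 in cKO, so the groups overlapped and the sum was 1.03 times as high in cKO. Most of it came from *Lyz2*, *C1qa*, *C1qb* and *C1qc*, of which all but *C1qa* were named after their values were seen. *C1qa* and *C1qc* were called lower in cKO, while *C1qb* and *Lyz2* were not called, so the sum says little of the other markers. Relative to this sum, *Retnla* was at 354 and 346.6 per 1000 FPKM of macrophage markers in Ctrl and at 123.9 and 115.7 in cKO. On that scale the cKO level was 0.342 times the Ctrl level for *Retnla*, 0.42 for *Cd163*, 0.573 for *Mrc1*, 0.613 for *Nos2* and 0.671 for *Clec10a*. The ratios of the members that were higher were 110 for *Arg1*, 3.44 for *Chil3*, 1.69 for *Trem2*, 1.23 for *Il4ra* and 1.23 for *Gpnmb*. The direction of every member was the same as in the library-wide FPKM. With a sum only 1.03 times as high in cKO, this scale could not have turned a direction. Other scales moved the smaller differences. Relative to 8 white adipocyte markers, whose sum in cKO was 0.782 times that in Ctrl, *Clec10a* was at 0.889 and *Retnla* at 0.452 times the Ctrl level. Relative to the summed markers of B cells and T cells, which were higher in cKO, *Il4ra* and *Gpnmb* turned to 0.824 and 0.821 times the Ctrl level and *Trem2* was at 1.13. The other 8 members kept their direction on all 4 scales.

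**Figure D2:**
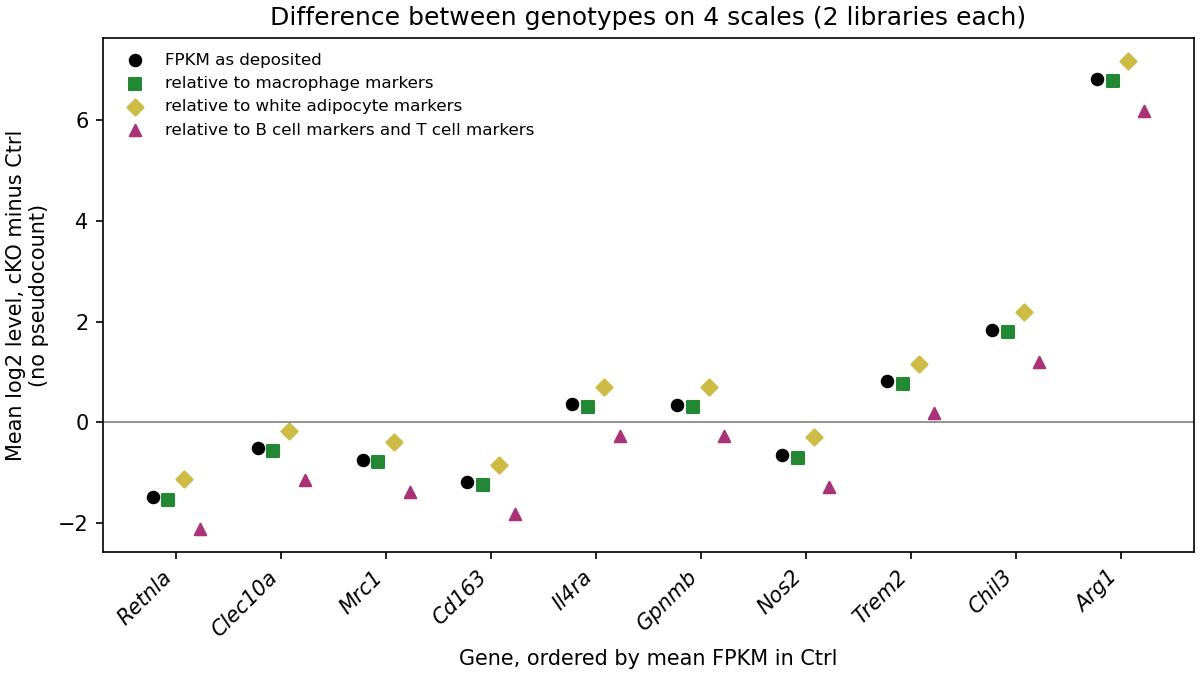
Mean log2 level of each member in cKO minus that in Ctrl, with no pseudocount, as FPKM (black circles) and relative to the summed markers of macrophages (green squares), of white adipocytes (yellow diamonds) and of B and T cells (purple triangles), with 2 libraries a genotype. The black and green marks lie close together for every gene, and only the purple marks of *Il4ra* and *Gpnmb* cross the zero line.

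The general macrophage markers themselves were split. Of the 16 tested, 4 rose and 4 fell in cKO at an adjusted p under 0.05, and their median log2 fold change was 0.02. The share called was 50%, against 25.8% of all genes tested. The strongest rises were those of *Fcgr1*, the high-affinity receptor for IgG, from 3.83 and 4.02 to 10.9 and 9.54 FPKM (limma with Benjamini-Hochberg adjustment, log2 fold change 1.18, adjusted p = 0.000354), and of *Cd68*, a lysosomal glycoprotein, from 43.0 and 36.3 to 71.9 and 61.4 FPKM (0.73, adjusted p = 0.00281). The strongest falls were those of *Cd14*, a co-receptor for endotoxin, from 16.8 and 15.2 to 9.84 and 10.04 FPKM (-0.63, adjusted p = 0.0014), and of the complement gene *C1qa*, from 226.3 and 184.84 to 158.44 and 155.93 FPKM (-0.38, adjusted p = 0.0262). *C1qa* was not called without Ctrl replicate 1, cKO replicate 1 or cKO replicate 2, at log2 fold changes of -0.23, -0.39 and -0.37. Its size rested on the Ctrl libraries, since it was at -0.52 without Ctrl replicate 2. *Tyrobp*, the adaptor of *Trem2*, had a log2 fold change of 0.29 (adjusted p = 0.0812) and rested on the Ctrl libraries, since it was called higher without Ctrl replicate 1, at 0.46, and was at 0.12 without Ctrl replicate 2.

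Most genes of resident macrophages were lower in cKO, as were *Cd163* and *Mrc1*. Of 18 such genes tested, 11 fell and 3 rose, with a median log2 fold change of -0.42. Thus 77.8% were called, against 25.8% of all genes tested. *F13a1*, the A subunit of coagulation factor XIII, fell from 59.9 and 51.1 to 28.41 and 26 FPKM (limma with Benjamini-Hochberg adjustment, log2 fold change -1.0, adjusted p = 0.000603). *Cd209f*, a C-type lectin, fell from 72.8 and 68.0 to 39.6 and 37.6 FPKM (-0.85, adjusted p = 0.000351). Further genes that fell include *Folr2*, *Lyve1* and *Cbr2*, which were named after their values were seen, with log2 fold changes of -0.73, -0.36 and -0.75. *Timd4*, also named afterwards, was at 24.8 and 24.5 FPKM in Ctrl and at 24.4 and 33.4 in cKO, so its groups overlapped. The 3 genes that rose were *Hmox1*, *Cd5l* and the iron exporter *Slc40a1*, the last named afterwards. *Hmox1*, the heme oxygenase, rose from 29.1 and 26.7 to 92.3 and 71.4 FPKM (1.51, adjusted p = 0.000396), and *Cd5l*, a secreted scavenger protein of macrophages, from 1.7 and 1.16 to 3.56 and 2.92 FPKM (0.81, adjusted p = 0.00703). Without Ctrl replicate 1 the count of falls was 5 in place of 11, and without Ctrl replicate 2 *Cd5l* was not called, at a log2 fold change of 0.65.

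Genes of the pathway upstream of alternative activation were called at about the share of all genes. Of its 16 genes tested, 2 rose and 2 fell, which is 25% against 25.8%, and the median log2 fold change was 0.05. *Il4* was at 0.28 and 0.38 FPKM in Ctrl and at 0 and 0.29 in cKO, and *Il13* at 0.14 in both Ctrl libraries and 0.1 in both cKO libraries, and neither passed the filter on low values. In limma with Benjamini-Hochberg adjustment, *Stat6* had a log2 fold change of 0.18 (adjusted p = 0.0675) and the receptor chain *Il13ra1* one of -0.23 (adjusted p = 0.0682). The genes that rose were *Il2rg*, the common gamma chain of cytokine receptors, from 47.6 and 47.1 to 66.9 and 76.4 FPKM (0.58, adjusted p = 0.00192), and *Ppargc1b*, a coactivator of mitochondrial and lipid genes, from 3.57 and 4.2 to 7.89 and 7.21 FPKM (0.81, adjusted p = 0.00156). Those that fell were the transcription factors *Klf4* (-0.52, adjusted p = 0.00531) and *Pparg* (-0.25, adjusted p = 0.0196), the latter also the main regulator of adipocyte genes. The paper counts *Ppargc1b*, as *Pgc1β*, among the thermogenic genes that were higher in cold-exposed cKO ingWAT by real-time PCR. Summed B and T cell markers were also higher in cKO. The cell source of the genes called in this list was not tested. The fall of *Klf4* was not called without Ctrl replicate 1, at -0.40, nor was that of *Pparg* without Ctrl replicate 1, Ctrl replicate 2 or cKO replicate 1, at -0.26, -0.23 and -0.21. The count of falls was then 0, 1 and 1.

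Of 14 other alternative-activation genes tested, 5 fell and 1 rose, with a median log2 fold change of -0.09. That is 42.9% called, against 25.8% of all genes tested. *Mgl2*, the lectin gene next to *Clec10a*, fell from 46.2 and 39.3 to 21.6 and 20.1 FPKM (limma with Benjamini-Hochberg adjustment, log2 fold change -1.0, adjusted p = 0.000568). The FPKM of *Clec10a* divided by that of *Mgl2* was 1.57 and 1.66 in Ctrl and 2.32 and 2.28 in cKO, without overlap. *Cish*, an inhibitor of cytokine receptor signalling, fell from 22.2 and 21.7 to 3.83 and 10.1 FPKM (-1.65, adjusted p = 0.0107), with the cKO libraries far apart, and its call was lost without Ctrl replicate 1 and without Ctrl replicate 2, at -1.63 and -1.66. Its size rested on the cKO libraries, being -1.05 without cKO replicate 1 and -2.25 without cKO replicate 2. The chemokine gene *Ccl24*, the lectin gene *Cd209a* and the growth factor gene *Igf1*, named after their values were seen, also fell, with log2 fold changes of -0.71, -0.75 and -0.89. The gene that rose was *Msr1*, the class A scavenger receptor, from 4.14 and 3.77 to 6.44 and 6.11 FPKM (0.55, adjusted p = 0.00402). Without Ctrl replicate 2 it was not called, at 0.50, so that no gene of the list rose, and without cKO replicate 1 the list had 2 rises. Without Ctrl replicate 1 the count of falls was 3.

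The lipid-associated genes divided around *Trem2* and *Gpnmb*. Of 24 tested, 7 rose and 6 fell, with a median log2 fold change of 0.06. *Spp1*, which encodes the secreted protein osteopontin, rose from 3.69 and 2.18 to 11.5 and 8.44 FPKM (limma with Benjamini-Hochberg adjustment, log2 fold change 1.49, adjusted p = 0.00243). *Lgals3*, which encodes galectin 3, rose from 45.9 and 45.8 to 110.7 and 91.2 FPKM (1.12, adjusted p = 0.000475). The lysosomal lipase gene *Lipa*, the lipid droplet gene *Plin2*, the integrin gene *Itgax* and the signalling genes *Syk* and *Plcg2*, named after their values were seen, rose as well, by log2 fold changes of 0.47 to 0.80. The protease gene *Ctsk* fell from 32.3 and 28.1 to 17.4 and 20.0 FPKM (-0.66, adjusted p = 0.00282) and the phosphatase gene *Acp5* from 351.45 and 331.92 to 259.09 and 265.61 FPKM (-0.38, adjusted p = 0.00536). The other genes that fell, *Lpl*, *Cd36*, *Cd63* and *Ctsl*, were named after their values were seen. *Lpl*, *Cd36* and *Plin2* are also expressed by adipocytes. Without Ctrl replicate 1 none of the list was called lower, *Ctsk* and *Acp5* having log2 fold changes of -0.56 and -0.34.

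Among inflammatory genes other than *Nos2*, more were called higher than lower. Of 25 tested, 9 rose and 3 fell, with a median log2 fold change of 0.14. That is 48% called, against 25.8% of all genes tested. *Ccl2*, the chemokine that attracts monocytes, rose from 4.35 and 3.58 to 20.4 and 17.0 FPKM (limma with Benjamini-Hochberg adjustment, log2 fold change 1.98, adjusted p = 0.000161). *Cxcl10*, an interferon-induced chemokine, rose from 3.49 and 2.95 to 9.85 and 8.8 FPKM (1.29, adjusted p = 0.000389). *Il1b* and *Saa3*, named after their values were seen, rose from under 1 FPKM, by log2 fold changes of 1.0 and 1.24. *Cxcl9*, a chemokine induced by interferon gamma, fell from 16.2 in both Ctrl libraries to 10.1 and 11.9 FPKM (-0.52, adjusted p = 0.00499), and the endotoxin receptor gene *Tlr4* fell from 6.28 and 5.87 to 3.82 and 4.28 FPKM (-0.49, adjusted p = 0.00774). The cytokine gene *Tnf* was at 1.4 and 1.57 FPKM in Ctrl and at 1.77 and 2.39 in cKO (0.30, adjusted p = 0.139), and *Ifng* was at 0.44 FPKM or less in every library. Without Ctrl replicate 1 the list had 5 rises, and without Ctrl replicate 1 or without Ctrl replicate 2 it had no fall, with *Cxcl9* at -0.52 and -0.52 and *Tlr4* at -0.45 and -0.53.

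**Figure D3:**
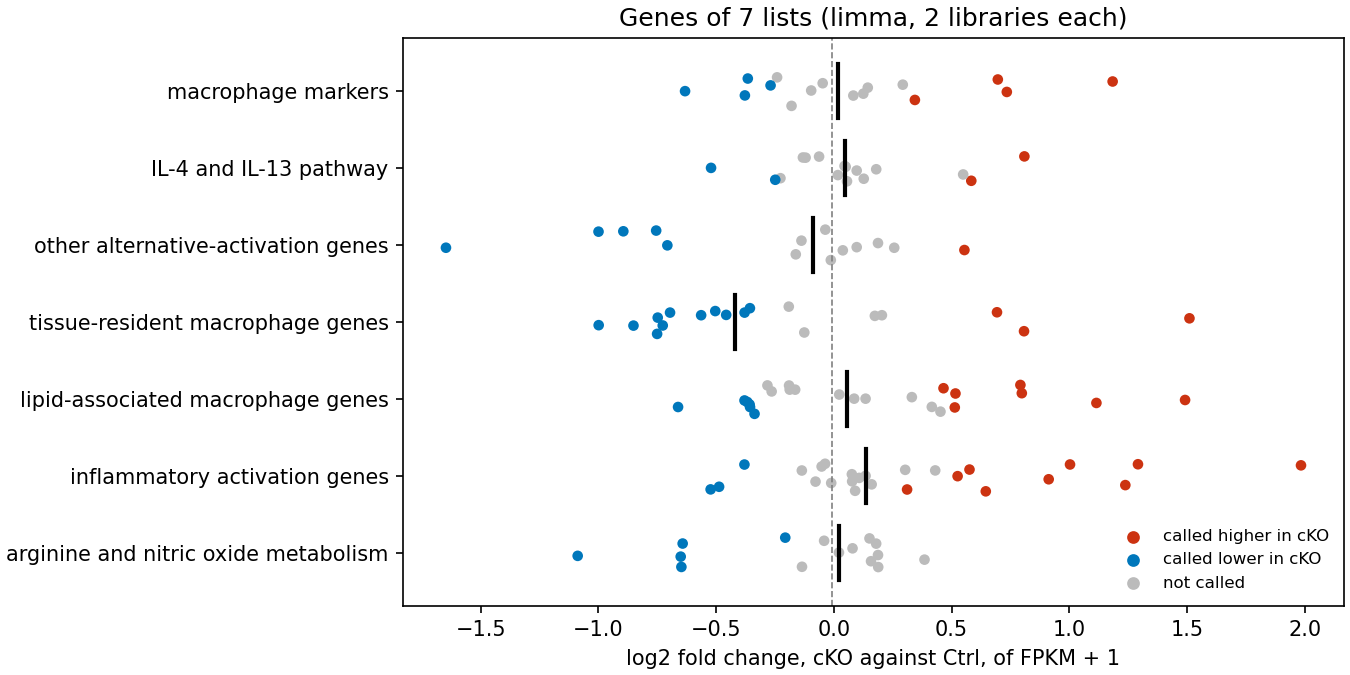
Log2 fold change (cKO against Ctrl, FPKM + 1) of each gene tested in 7 lists, none of them a member, in red where called higher, blue where called lower and grey where not called, with a black bar at the median of the list and a dashed line at the median of all genes tested (-0.006). The bar of the tissue-resident list lies at -0.42, while those of the other lists lie between -0.09 and 0.14.

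Among genes of arginine and nitric oxide metabolism other than *Arg1* and *Nos2*, limma called 0 of the 15 tested higher and 5 lower. That is 33.3% called, against 25.8% of all genes tested, and the median log2 fold change of the list was 0.02. At an unadjusted p under 0.05, 1 of the 15 was higher. *Gatm*, which makes the precursor of creatine from arginine, fell from 7.12 and 7.1 to 2.84 and 2.79 FPKM (limma with Benjamini-Hochberg adjustment, log2 fold change -1.09, adjusted p = 0.000353), and *Ddah2*, which belongs to the enzymes that break down methylated arginine, from 19.4 and 18.5 to 11.8 and 11.6 FPKM (-0.65, adjusted p = 0.000834). *Nos3*, the synthase of endothelial cells, fell from 33.0 and 28.5 to 18.3 and 20.1 FPKM (-0.65, adjusted p = 0.00233). *Nos1* was at 0.17 to 0.22 FPKM. *Arg2*, the mitochondrial arginase, was at 0.2 and 0.16 FPKM in Ctrl and at 0.38 and 0.25 in cKO, far below *Arg1* in cKO. *Ass1*, which renews arginine from citrulline and was named after its values were seen, had a log2 fold change of 0.39 (adjusted p = 0.0514). The list had 1 rise without cKO replicate 1 and under 5 other settings.

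The close relatives of the members differed among themselves in level and direction. In the resistin family, *Retn*, an adipocyte product in mice, fell from 1798.67 and 1680.38 to 950.47 and 1074.23 FPKM (limma with Benjamini-Hochberg adjustment, log2 fold change -0.78, adjusted p = 0.00155), and *Retnlg*, a neutrophil gene, rose from 0.72 and 1.08 to 2.39 and 1.58 FPKM (0.64, adjusted p = 0.0308). *Retn* was not called without Ctrl replicate 1, at -0.73, and *Retnlg* not without Ctrl replicate 1, Ctrl replicate 2 or cKO replicate 1, at 0.51, 0.78 and 0.45. The chitinase-like genes *Chil1*, *Chil4*, *Chil5* and *Chil6* and the chitinase genes *Chia1* and *Chit1* were at 0.4 FPKM or less in every library, so *Chil3* was the only gene of that group above 1 FPKM. Of the relatives of *Mrc1*, *Mrc2*, a collagen receptor, fell (-0.67, adjusted p = 0.00259, not called without Ctrl replicate 1, at -0.58), *Ly75* had a log2 fold change of 0.07 (adjusted p = 0.705) and *Pla2r1* was at 0.7 to 1.15 FPKM. *Cd163l1*, the relative of *Cd163*, was at 1.06 and 0.86 FPKM in Ctrl and at 1.14 and 1.81 in cKO (0.33, adjusted p = 0.183). Of the genes of the *Trem2* family, *Treml2* rose from 3.36 and 3.33 to 5.4 and 6.59 FPKM (0.68, adjusted p = 0.00396, not called without Ctrl replicate 1 or Ctrl replicate 2, at 0.69 and 0.68), and *Treml4* had a log2 fold change of 0.36 (adjusted p = 0.15). *Trem1*, *Trem3* and *Treml1* were at 0.39 FPKM or less, and *Pmel*, the relative of *Gpnmb*, at 0.51 to 0.75 FPKM.

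Likeness to *Arg1* and *Retnla* was measured over the 4 libraries as the Euclidean distance between log2(FPKM + 1) values centred on the mean of each gene. The genes nearest to *Arg1* were *Snord100*, *Clec4d* and *Ccl2*, at distances of 0.323, 0.463 and 0.469. *Snord100*, a small nucleolar RNA, was listed at 0 in Ctrl and at 5.14 and 5.08 FPKM in cKO. For so short an RNA such values rest on few reads, in libraries made by poly(A) selection, and its reads were not estimated. *Clec4d*, a lectin receptor of myeloid cells, was at 0.29 and 0.72 FPKM in Ctrl and at 5.83 and 4.72 in cKO. Nearest to *Retnla* were the muscle genes *Neb* and *Ryr1* and the matrix gene *Ogn*, at 0.079, 0.106 and 0.0933. *Neb* was at 2.25 and 1.67 FPKM in Ctrl and at 0.06 and 0.07 in cKO, and *Ogn* at 60.3 and 54.9 against 19.6 and 19.6. With 4 libraries in 2 groups, any gene with a difference of like size on the log2(FPKM + 1) scale and little spread is near. Adding 1 to each FPKM shrinks the differences of low genes, so *Neb* and *Ryr1* fell by a larger fold in FPKM than *Retnla* did.

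Markers of other cells moved with the genotypes. The 13 skeletal muscle markers summed to 2848 and 1940 FPKM in Ctrl and to 48.61 and 48.05 in cKO, 12 of 12 tested being lower. The 8 fibroblast progenitor markers summed to 1343 and 1145 FPKM in Ctrl and to 745.1 and 758.2 in cKO, 6 of 8 being lower, and the 8 white adipocyte markers to 32580 and 31080 against 24830 and 24960, 4 of 8 being lower. B cell markers summed to 240.5 and 273.3 FPKM in Ctrl and to 372.8 and 422.6 in cKO, 7 of 8 being higher, and T cell markers to 100.4 and 105.9 against 139.4 and 182.6, 6 of 8 being higher. In each of these lists the groups did not overlap.

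Among the myeloid lists, monocyte markers summed to 223.8 and 203.3 FPKM in Ctrl and to 225.7 and 229.3 in cKO, with 4 of 10 tested higher and 2 lower. Neutrophil markers summed to 31.17 and 29.03 FPKM in Ctrl and to 46.02 and 44.65 in cKO, with 6 of 7 tested higher and 1 lower. The 6 were *S100a8*, *S100a9*, *Csf3r*, *Cxcr2*, *Lcn2* and *Retnlg*, and *Ly6g* was at 0.06 FPKM or less in every library. Dendritic cell markers summed to 53.92 and 53.26 FPKM in Ctrl and to 55.06 and 66.58 in cKO, with 1 of 9 tested higher and 1 lower. Of 7 eosinophil markers 3 are not in the table and none of the others passed the filter, and their sum was 1.91 to 2.17 FPKM. The markers of group 2 innate lymphoid cells and mast cells summed to 148.9 and 127.4 FPKM in Ctrl and to 116.4 and 124.7 in cKO, with 1 of 9 tested higher and 2 lower. These shifts stand beside every difference between genotypes given above, and their part in the values of the members was not tested.

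**Figure D4:**
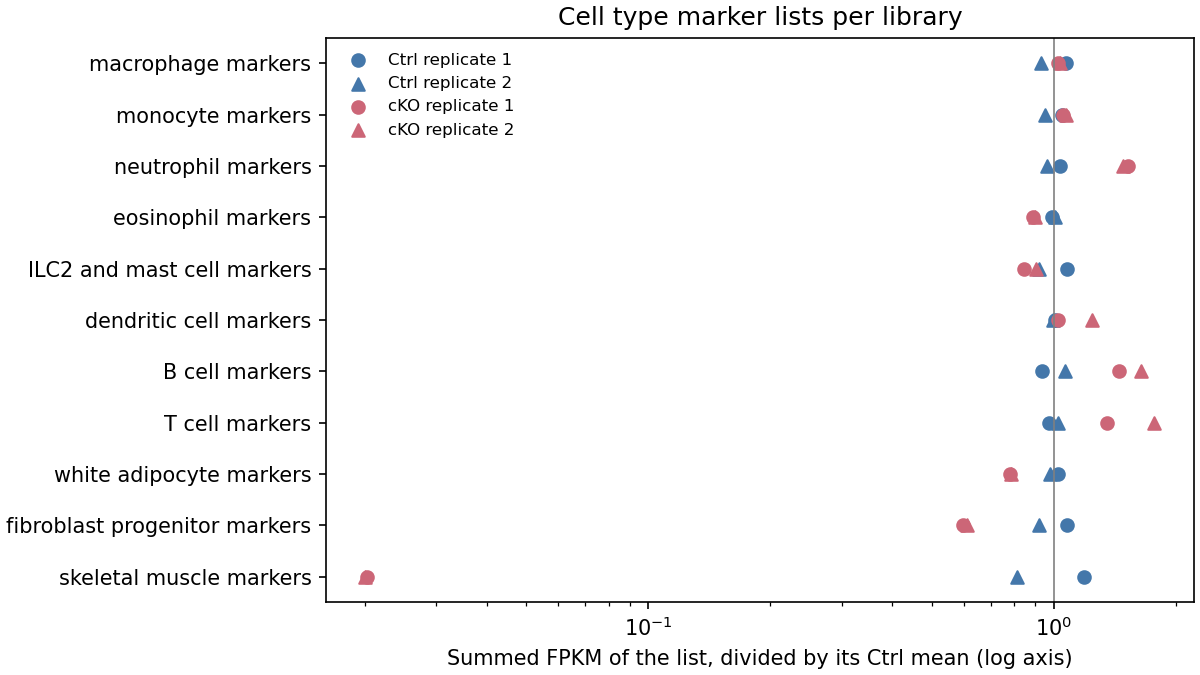
Summed FPKM of 11 lists of cell type markers in each library, divided by the mean of the 2 Ctrl libraries (log axis), with Ctrl in blue, cKO in red, a circle for replicate 1 and a triangle for replicate 2. The macrophage sums of the genotypes overlap, the B cell, T cell and neutrophil sums are higher in cKO, and the skeletal muscle sum of cKO is 0.0202 times that of Ctrl.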

How the data were processed

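RNA of ingWAT was sequenced by the authors with poly(A) selection and 50-base single-end reads, and FPKM per gene and library were deposited. The submitters' processing notes name HISAT2 2.0.4, RSEM 1.2.12 and mm10, without their roles. Groups came from the sample titles. The labels give no batch. All 10 members and the lists were chosen with earlier results of these data known.

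The 12658 of 19030 genes that averaged 1 FPKM or more across libraries were fitted as log2(FPKM + 1) in R 4.3.3 (limma 3.58.1, eBayes with a trend, two-sided, Benjamini-Hochberg adjustment over all genes tested, threshold 0.05), checked on simulated data. Lists are described by counts and medians from this fit and were not tested. The genes named are the members, their families, the 2 rises and the 2 falls of largest size per list, the cytokines and receptors *Il4*, *Il13*, *Ifng*, *Tnf*, *Il13ra1*, *Stat6* and *Tyrobp*, and the 3 genes nearest to *Arg1* and to *Retnla*. Others are marked as named after their values were seen. No read counts are in the table. Depth was estimated by the steps in the FPKM values of 305 genes of short RNAs, of which 83.3% to 87.9% of the values used were whole reads within 0.1, with a form of the estimate chosen after several were tried. Whole reads were not recoverable for genes in general, so no count test was run. Motifs were chosen after the windows had been seen, and 1 of those searched is not reported here. The alternatives were quantile normalization or median-of-ratios scaling, a filter at 5 FPKM or none, a pseudocount of 0.1, a block for the replicate number, no trend, an absolute log2 fold change of at least 1, leaving out each library and, for the members, levels relative to macrophage markers. Levels relative to adipocyte and to B and T cell markers were added after seeing the data. Python 3.11.15, pandas 2.3.3, numpy 2.4.6, scipy 1.17.1 and matplotlib 3.10.9 were used for the other steps.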

Additional observations from a re-analysis of the deposited data

How the results depend on the processing

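Counts of called genes are given as rises and falls. Without each library in turn, all genes had 303 to 1072 rises and 484 to 1379 falls, macrophage markers 3 to 4 and 1 to 5, the IL-4 and IL-13 pathway 2 to 2 and 0 to 2, other alternative-activation genes 0 to 2 and 3 to 5, tissue-resident genes 2 to 4 and 5 to 8, lipid-associated genes 5 to 7 and 0 to 6, inflammatory genes 5 to 9 and 0 to 3, and arginine genes 0 to 1 and 4 to 4. Requiring also an absolute log2 fold change of at least 1 left 81 rises and 152 falls of all genes, 1 and 0 for macrophage markers, 0 and 0 for the IL-4 and IL-13 pathway, 0 and 1 for other alternative-activation genes, 1 and 0 for tissue-resident genes, 2 and 0 for lipid-associated genes, 4 and 0 for inflammatory genes, and 1 fall for arginine genes. With no filter, in which more genes of low level are tested, there were 667 rises and 1095 falls in all, and the falls were 1 for macrophage markers, 0 for the IL-4 and IL-13 pathway, 6 for tissue-resident genes and 1 for inflammatory genes. Without a trend of the variance, the falls were 1 for macrophage markers and 1 for the IL-4 and IL-13 pathway. Arginine genes had 1 rise in place of 0 with quantile normalization, median-of-ratios scaling, a pseudocount of 0.1 or a filter at 5 FPKM. The cause of these changes was not tested except where named.

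The labels do not say whether the replicate numbers pair the libraries. The differences between replicates 1 and 2 of the genotypes correlated at 0.0148 over genes, which does not settle it. With the replicate number as a block, arginine genes had 1 rise in place of 0, *Tyrobp* was called higher at 0.29, all genes had 1594 rises and 1789 falls, and no other count of a list moved by over 1.5 times.

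Relative to B and T cell markers, an alternative added after seeing the data, the log2 differences of *Il4ra* and *Gpnmb* turned to -0.28 and -0.28, and these were the 2 of 127 alternatives of members that turned a direction. A further 26 kept the direction but changed the difference by at least the pooled SD of the member within genotypes. *Arg1* had 5 of these and *Nos2* had 4. Of 410 alternatives of the 38 named genes tested, 372 kept direction and call, 34 lost the call, 4 gained it and 0 turned the direction. The FPKM table has no read counts, and the genes under 1 FPKM rest on few reads.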
